A study of Mus musculus with 12 samples.

Results

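The DNA replication genes described here are 46 mouse genes whose products license replication origins, build and run the replication fork, supply deoxynucleotides or restore chromatin behind the fork, 3 *E2f* genes among them. They were chosen by name, all 46 were found by their Ensembl gene ID among the 54532 genes counted in each sample, and all 46 passed the filter on low counts in every comparison. The 12 samples were brainstem progenitors from C57BL/6 pups of the genotype Nestin TVA; p53 floxed, isolated at P3-P5 by the labels and at P3 by the methods of the study, and grown without serum with EGF and FGF2. All carried an RCAS vector for human ACVR1, a BMP type I receptor, either as the wild-type protein (*ACVR1* WT) or with the R206H change (*ACVR1* R206H). Some samples also carried a vector for H3.1K27M, a histone H3.1 in which a lysine is replaced by methionine, so that each receptor was studied alone and together with H3.1K27M, in 4 groups of 3 samples. No group without an *ACVR1* vector was analysed here. RCAS vectors enter cells with the TVA receptor, which the nestin promoter drives, so that nestin-expressing cells of the culture could be infected. The labels name no Cre vector for these samples, and *Trp53* was counted in every library (76.6 to 127 CPM). CPM is the number of counts of a gene per 1000000 counts of its library after TMM scaling over the 12 samples.

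Replication starts at origins that are licensed in G1, when the origin recognition complex (ORC), CDC6 and CDT1 load rings of the MCM proteins onto DNA. In S phase, CDC45 and the GINS complex join the ring to make the working helicase, polymerase alpha-primase lays down primers, and polymerases epsilon and delta copy the strands with the sliding clamp PCNA. Many of the genes are transcribed under E2F factors as cells enter the cycle, so that their mRNAs are abundant in dividing progenitors and scarce in cells that have left the cycle.

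E2F factors bind short words in promoters, and the promoters below are shown because they show where such words stand in genes described here. Of the 46 genes, 39 had a promoter in RefSeq's table (GRCm38.p6, 250 bases before the start were searched) and 7 did not (*Mcm4*, *Gins1*, *Gins2*, *Gins4*, *Rfc2*, *Prim2* and *Pole*). One of the E2F words TTTCCCGC, TTTGGCGC, TTTCGCGC and TTTGCCGC, read on both strands, stood in 9 of the 39 promoters (23.1%) and in 583 of the promoters of 27025 genes (2.16%). The 9 genes were *Cdc6*, *Gins3*, *Mcm5*, *Mcm6*, *Mcm7*, *Orc1*, *Pola1*, *Rfc3* and *Uhrf1*. Without the first T, the words stood in 43.6% of the 39 promoters and 9.01% of all. CCAAT stood in 61.5% of the 39 promoters against 37.5% of all, and the CHR words TTTGAA and TTCGAA in 23.1% against 19.6%. Stretches of 100 bases follow for 6 of the 9 genes and for *Pcna* and *Tk1*, whose promoters held none of the E2F words, each written 5′ to 3′ on the strand of its gene with E2F words in capitals. The stretches are *Mcm5* chr8:75109312-75109411 (plus strand), *Mcm6* chr1:128359731-128359830 (minus strand), *Orc1* chr4:108579354-108579453 (plus strand), *Cdc6* chr11:98907967-98908066 (plus strand), *Pola1* chrX:93632240-93632339 (minus strand), *Rfc3* chr5:151651209-151651308 (minus strand), *Pcna* chr2:132253181-132253280 (minus strand) and *Tk1* chr11:117826015-117826114 (minus strand).
*Mcm5*: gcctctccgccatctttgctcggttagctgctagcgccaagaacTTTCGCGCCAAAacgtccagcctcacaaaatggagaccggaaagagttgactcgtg
*Mcm6*: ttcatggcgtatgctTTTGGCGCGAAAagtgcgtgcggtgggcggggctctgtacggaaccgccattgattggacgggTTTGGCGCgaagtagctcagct
*Orc1*: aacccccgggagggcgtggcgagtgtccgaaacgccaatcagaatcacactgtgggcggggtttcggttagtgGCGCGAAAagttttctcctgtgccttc
*Cdc6*: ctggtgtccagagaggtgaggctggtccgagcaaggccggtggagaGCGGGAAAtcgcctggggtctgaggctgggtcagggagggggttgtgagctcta
*Pola1*: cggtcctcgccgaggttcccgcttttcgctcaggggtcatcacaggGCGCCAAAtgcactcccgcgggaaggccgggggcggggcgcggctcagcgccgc
*Rfc3*: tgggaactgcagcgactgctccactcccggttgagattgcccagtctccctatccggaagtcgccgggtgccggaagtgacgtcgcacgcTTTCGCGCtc
*Pcna*: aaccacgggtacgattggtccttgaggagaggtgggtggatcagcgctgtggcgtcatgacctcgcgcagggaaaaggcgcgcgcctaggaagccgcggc
*Tk1*: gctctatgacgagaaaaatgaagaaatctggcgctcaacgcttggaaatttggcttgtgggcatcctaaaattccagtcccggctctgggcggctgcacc
In *Mcm5* a forward TTTCGCGC and a reverse TTTGGCGC overlapped, 153 and 149 bases before the start counted to their first base. *Mcm6* held the same kind of overlap (110 and 106 bases before the start) and a further TTTGGCGC at 47 bases. More than 1 E2F word was found in these 2 of the 39 promoters and in 16 of 27025 genes.

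Libraries held 19315020 to 26456257 counts (median 20994196), and the replication genes had between 13 and 7873 counts each in a sample. The 3 *ACVR1* WT libraries stood apart from the other 9. The biological coefficient of variation, the spread between replicates of a group beyond counting error, was 0.273 among the *ACVR1* WT libraries and 0.045 to 0.059 within the other 3 groups. Their totals (21397108, 19542127 and 21035474) lay within the range of the other samples. Counts of genes called that rest on these libraries are therefore also given with some of them left out. The labels do not tie replicates to litters or cultures, so that p-values measure the spread between these samples, which may be technical. Vector expression could be read only in part: mouse *Acvr1* was at 53.5, 46.4 and 52.7 CPM with *ACVR1* WT, 114, 81.9 and 85.8 with *ACVR1* R206H, 169.9, 162 and 364 with *ACVR1* WT and H3.1K27M and 999, 561 and 1057 with *ACVR1* R206H and H3.1K27M, and how many of these counts came from the human insert was not tested.

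Levels of different genes were compared as CPM per kilobase of exon, averaged over the 9 libraries outside the *ACVR1* WT group. *Pcna* stood first at 55.6 CPM per kilobase (46.04 to 65.5 over the 9 libraries), followed by *Rrm2*, the small subunit of ribonucleotide reductase, at 47.0 (38.4 to 54.7), the single-strand binding gene *Rpa1* at 31.6 (28.6 to 38.3) and *Mcm4* at 28.1 (25.2 to 31.0). The ranges of *Pcna* and *Rrm2* overlap, as do those of *Rpa1* and *Mcm4*, while those of *Rrm2* and *Rpa1* do not. The 6 MCM ring genes lay between 13.0 (*Mcm2*) and 28.1 (*Mcm4*), and within each of the 9 libraries the highest exceeded the lowest by 1.98 to 2.42 times. *Orc1*, the large subunit of ORC, was low at 1.12 (0.99 to 1.51). *Fen1*, the flap endonuclease that trims Okazaki fragments, was last at 0.57 (0.41 to 0.69), but 84.2% of its exon bases are shared with *Tmem258* and *Gm10143*, and counting in union mode without strand leaves out reads in shared bases. The same holds for 67.3% of *Gins2* (shared with *Gse1*), 52.5% of *Chaf1a* (with *Ubxn6*) and 10.7% to 15.1% of *Mcm7*, *Rfc2*, *Rfc4*, *Rfc5*, *E2f8* and *Orc1*, so that the levels of these 9 genes are uncertain. Reads in the shared bases could not be told apart between a gene and its overlapping partner and were left out for both.

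The widest differences among the 12 samples were between replicates of *ACVR1* WT. *ACVR1* WT replicate 1 lay above all 9 libraries of the other groups for 44 of the 46 genes, replicate 2 below all 9 for 42 and replicate 3 below all 9 for 44. All 3 conditions held together for 40 genes (87.0%), against 4.71% of the 15445 genes with a mean normalised count of at least 10. The mean log2 CPM of the 46 genes was 5.57 in *ACVR1* WT replicate 1, 4.08 in replicate 2 and 3.56 in replicate 3, and between 4.82 and 5.14 in the other 9. The samples are bulk RNA, so that fewer replicating cells and less RNA per cell cannot be told apart.

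**Figure D1:**
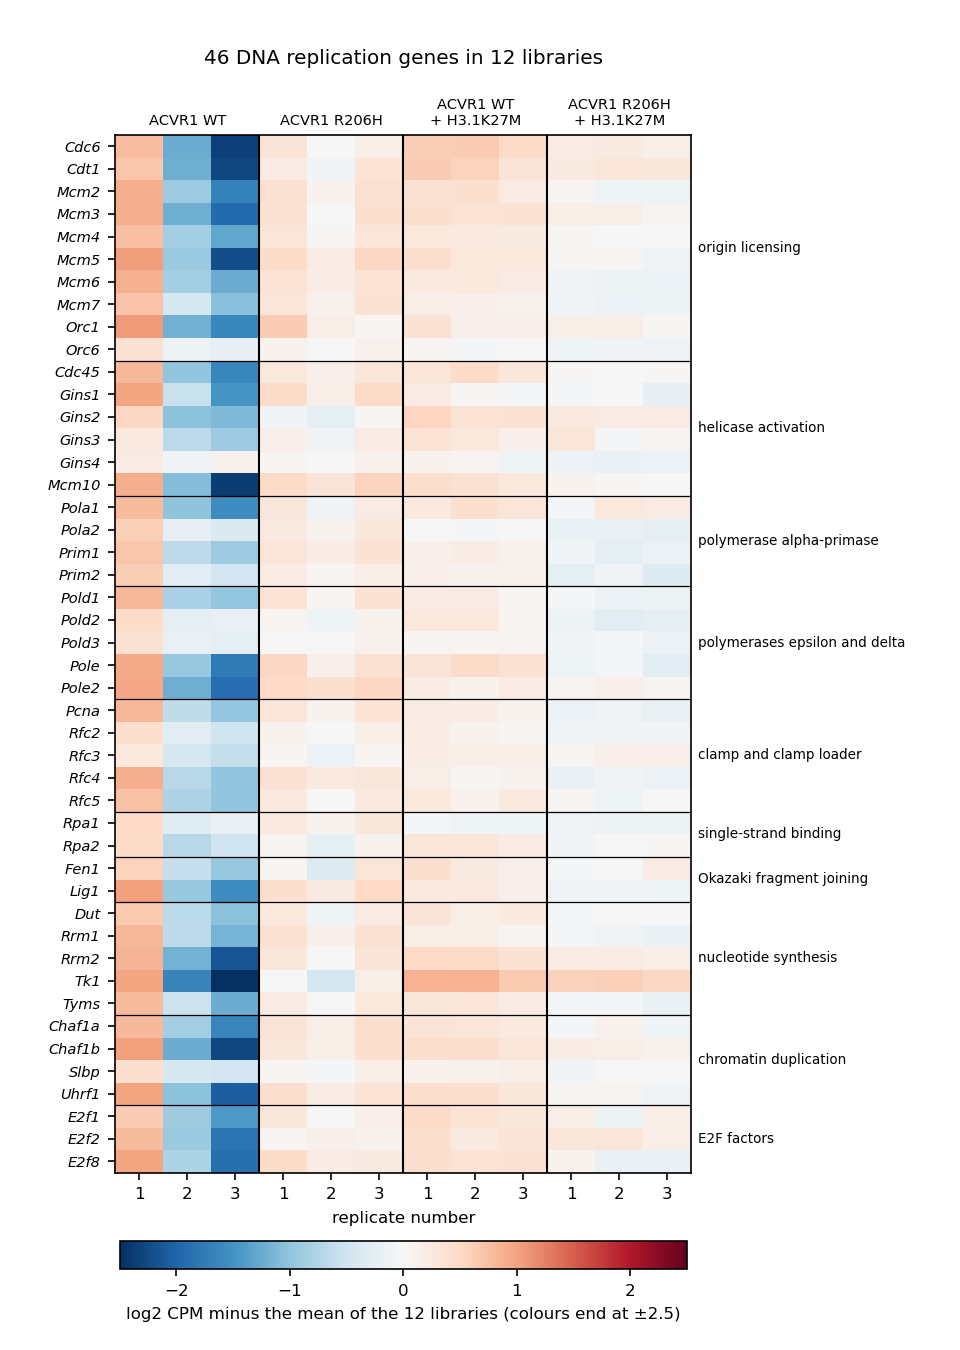
Colour shows the log2 CPM of each gene (rows, ordered by role) in each library (columns, 3 replicates per group) minus the mean of that gene over the 12 libraries. The *ACVR1* WT columns run from red in replicate 1 to blue in replicates 2 and 3, while the other 9 columns stay close to white.

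Licensing genes come first, and all but *Orc6* differed widely between the *ACVR1* WT libraries. *Mcm5*, a subunit of the ring, was at 149, 38.3 and 15.5 CPM with *ACVR1* WT, 100.1, 84.4 and 105 with *ACVR1* R206H, 97.6, 87.2 and 87.7 with *ACVR1* WT and H3.1K27M, and 73.9, 74.3 and 68.6 with *ACVR1* R206H and H3.1K27M. *Mcm2*, another subunit, was at 147, 41.8 and 24.4 CPM with *ACVR1* WT, 103, 84.2 and 103 with *ACVR1* R206H, 102, 104 and 91.3 with *ACVR1* WT and H3.1K27M, and 81.2, 73.1 and 72.9 with *ACVR1* R206H and H3.1K27M. *Mcm6* was at 169, 50.2 and 38.7 CPM with *ACVR1* WT, 115, 104 and 116 with *ACVR1* R206H, 107, 109 and 105 with *ACVR1* WT and H3.1K27M, and 85.3, 82.9 and 82.1 with *ACVR1* R206H and H3.1K27M. In each of these 3 genes *ACVR1* WT replicate 1 was the highest and replicate 3 the lowest of the 12 libraries. *Cdc6*, the loader ATPase, was at 21.00, 5.14 and 2.39 CPM with *ACVR1* WT, 15.3, 12.2 and 13.6 with *ACVR1* R206H, 18.7, 19.03 and 17.1 with *ACVR1* WT and H3.1K27M, and 14.1, 14.3 and 13.6 with *ACVR1* R206H and H3.1K27M. *Cdt1*, its partner in loading, was at 20.5, 5.45 and 2.59 CPM with *ACVR1* WT, 14.7, 12.2 and 16.1 with *ACVR1* R206H, 19.8, 18.7 and 15.8 with *ACVR1* WT and H3.1K27M, and 14.8, 15.7 and 15.6 with *ACVR1* R206H and H3.1K27M. *Orc1* was at 7.11, 1.45 and 1.08 CPM with *ACVR1* WT, 5.25, 3.77 and 3.49 with *ACVR1* R206H, 4.34, 3.71 and 3.68 with *ACVR1* WT and H3.1K27M, and 3.75, 3.78 and 3.44 with *ACVR1* R206H and H3.1K27M. The 3 genes had low counts, and again the *ACVR1* WT libraries spanned all others. *Orc6* had the narrowest span of the 10 licensing genes, with 49.3, 34.96 and 33.04 CPM in the *ACVR1* WT libraries and 35.4 to 41.3 in the other 9.

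Genes that activate the helicase differed among themselves. *Cdc45* was at 32.7, 9.39 and 6.01 CPM with *ACVR1* WT, 22.3, 20.2 and 23.00 with *ACVR1* R206H, 23.03, 25.6 and 22.7 with *ACVR1* WT and H3.1K27M, and 18.8, 18.4 and 18.95 with *ACVR1* R206H and H3.1K27M. *Mcm10*, which binds the helicase as it is switched on, was at 32.8, 8.25 and 3.37 CPM with *ACVR1* WT, 24.3, 21.9 and 25.8 with *ACVR1* R206H, 23.7, 22.8 and 20.9 with *ACVR1* WT and H3.1K27M, and 18.6, 17.96 and 17.3 with *ACVR1* R206H and H3.1K27M. For both, the *ACVR1* WT libraries bracketed the other 9. *Gins2*, a subunit of GINS, was at 20.6, 7.05 and 6.74 CPM with *ACVR1* WT, 13.9, 12.2 and 14.8 with *ACVR1* R206H, 21.03, 18.3 and 18.6 with *ACVR1* WT and H3.1K27M, and 16.99, 16.6 and 16.7 with *ACVR1* R206H and H3.1K27M. Here 1 library of *ACVR1* WT with H3.1K27M lay above *ACVR1* WT replicate 1. *Gins4* had the narrowest *ACVR1* WT span of the 46 genes, 1.23-fold, with 30.2, 24.6 and 27.96 CPM with *ACVR1* WT and 23.4 to 28.2 CPM in the other 9 libraries.

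At the fork, *Pola1*, the catalytic subunit of polymerase alpha, was at 62.3, 17.8 and 12.02 CPM with *ACVR1* WT, 43.5, 33.5 and 41.3 with *ACVR1* R206H, 42.5, 47.3 and 43.99 with *ACVR1* WT and H3.1K27M, and 35.1, 42.9 and 41.1 with *ACVR1* R206H and H3.1K27M. *Pole*, the catalytic subunit of the leading-strand polymerase epsilon, was at 55.1, 14.8 and 8.31 CPM with *ACVR1* WT, 41.01, 30.97 and 36.9 with *ACVR1* R206H, 35.5, 39.7 and 36.6 with *ACVR1* WT and H3.1K27M, and 26.3, 27.9 and 23.4 with *ACVR1* R206H and H3.1K27M. *Pcna* was at 221, 80.5 and 64.1 CPM with *ACVR1* WT, 154, 132 and 157 with *ACVR1* R206H, 144, 141 and 133 with *ACVR1* WT and H3.1K27M, and 113, 117 and 111 with *ACVR1* R206H and H3.1K27M. All 3 genes had *ACVR1* WT replicates 2 and 3 below every other library. *Rfc3* and *Rfc4* encode subunits of the loader that opens the clamp. *Rfc3* was at 39.4, 23.96 and 21.6 CPM with *ACVR1* WT, 33.9, 29.6 and 33.7 with *ACVR1* R206H, 37.3, 36.4 and 36.5 with *ACVR1* WT and H3.1K27M, and 33.3, 35.7 and 35.5 with *ACVR1* R206H and H3.1K27M. *Rfc4* was at 36.5, 11.98 and 9.82 CPM with *ACVR1* WT, 25.2, 22.9 and 23.8 with *ACVR1* R206H, 21.97, 20.1 and 20.7 with *ACVR1* WT and H3.1K27M, and 17.04, 18.3 and 17.6 with *ACVR1* R206H and H3.1K27M. The *ACVR1* WT span was wider for *Rfc4*, at 3.72-fold, than for *Rfc3*, at 1.82-fold. *Rpa2*, a subunit of the single-strand binding complex, was at 51.96, 23.03 and 26.4 CPM with *ACVR1* WT, 39.4, 32.2 and 39.9 with *ACVR1* R206H, 46.3, 45.9 and 43.2 with *ACVR1* WT and H3.1K27M, and 35.7, 37.1 and 38.2 with *ACVR1* R206H and H3.1K27M, and was one of the genes in which *ACVR1* WT replicate 3 exceeded replicate 2. *Lig1*, the ligase that joins Okazaki fragments, was at 122, 31.1 and 20.4 CPM with *ACVR1* WT, 80.96, 70.3 and 84.8 with *ACVR1* R206H, 71.3, 71.4 and 66.1 with *ACVR1* WT and H3.1K27M, and 56.3, 57.6 and 55.8 with *ACVR1* R206H and H3.1K27M. *Fen1* was at 1.85, 0.83 and 0.635 CPM with *ACVR1* WT, 1.30, 0.982 and 1.55 with *ACVR1* R206H, 1.68, 1.48 and 1.39 with *ACVR1* WT and H3.1K27M, and 1.23, 1.27 and 1.46 with *ACVR1* R206H and H3.1K27M, too low for firm statements.

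Genes of nucleotide supply and chromatin duplication included the widest *ACVR1* WT spans. *Tk1*, thymidine kinase 1 of the salvage pathway, was at 36.98, 5.86 and 2.10 CPM with *ACVR1* WT, 18.7, 13.8 and 20.6 with *ACVR1* R206H, 34.2, 34.02 and 29.5 with *ACVR1* WT and H3.1K27M, and 27.7, 28.1 and 26.8 with *ACVR1* R206H and H3.1K27M. It had the widest span among the *ACVR1* WT libraries, 17.6-fold, and the 6 H3.1K27M libraries lay above the *ACVR1* R206H libraries. *Rrm2* was at 193, 46.8 and 23.8 CPM with *ACVR1* WT, 129.9, 107 and 134 with *ACVR1* R206H, 152, 149 and 138 with *ACVR1* WT and H3.1K27M, and 123, 123 and 117 with *ACVR1* R206H and H3.1K27M. *Tyms*, thymidylate synthase, was at 40.3, 16.1 and 9.87 CPM with *ACVR1* WT, 26.95, 23.4 and 28.04 with *ACVR1* R206H, 28.6, 28.7 and 26.8 with *ACVR1* WT and H3.1K27M, and 22.4, 22.8 and 20.4 with *ACVR1* R206H and H3.1K27M. Both had *ACVR1* WT replicate 3 lowest of all 12. *Chaf1a* and *Chaf1b* encode subunits of the CAF-1 histone chaperone. *Chaf1a* was at 46.6, 14.5 and 8.41 CPM with *ACVR1* WT, 33.3, 29.99 and 34.9 with *ACVR1* R206H, 33.1, 32.9 and 31.6 with *ACVR1* WT and H3.1K27M, and 25.9, 28.8 and 24.8 with *ACVR1* R206H and H3.1K27M. *Chaf1b* was at 31.4, 6.54 and 3.18 CPM with *ACVR1* WT, 18.7, 17.2 and 20.6 with *ACVR1* R206H, 20.98, 20.8 and 19.1 with *ACVR1* WT and H3.1K27M, and 17.5, 17.3 and 16.6 with *ACVR1* R206H and H3.1K27M. *Chaf1b* came second to *Tk1* in the *ACVR1* WT span (9.88-fold), ahead of *Mcm10* (9.73-fold). *Uhrf1*, which brings maintenance DNA methylation to newly copied DNA, was at 136, 33.6 and 16.4 CPM with *ACVR1* WT, 92.5, 77.9 and 87.02 with *ACVR1* R206H, 92.3, 92.5 and 83.7 with *ACVR1* WT and H3.1K27M, and 72.2, 71.9 and 64.7 with *ACVR1* R206H and H3.1K27M. *Slbp*, which binds the stem-loop of histone mRNAs, was at 47.4, 27.3 and 25.7 CPM with *ACVR1* WT, 36.7, 35.2 and 40.3 with *ACVR1* R206H, 38.1, 38.8 and 39.6 with *ACVR1* WT and H3.1K27M, and 34.3, 36.1 and 36.3 with *ACVR1* R206H and H3.1K27M. The span of *Slbp* was 1.85-fold, against 8.25-fold for *Uhrf1*.

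Among the *E2f* genes, *E2f1*, a transcriptional activator, was at 18.4, 6.38 and 4.35 CPM with *ACVR1* WT, 14.4, 11.8 and 13.03 with *ACVR1* R206H, 16.5, 15.04 and 14.4 with *ACVR1* WT and H3.1K27M, and 13.1, 10.9 and 13.3 with *ACVR1* R206H and H3.1K27M. *E2f8*, a repressor that is itself an E2F target, was at 33.8, 9.86 and 4.64 CPM with *ACVR1* WT, 23.6, 19.8 and 20.1 with *ACVR1* R206H, 22.6, 21.6 and 21.9 with *ACVR1* WT and H3.1K27M, and 18.1, 15.1 and 15.03 with *ACVR1* R206H and H3.1K27M. *E2f2* was at 15.6, 4.67 and 2.49 CPM with *ACVR1* WT and at 9.10 to 11.99 CPM in the other 9 libraries. The *ACVR1* WT libraries bracketed the other 9 for all 3.

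**Figure D2:**
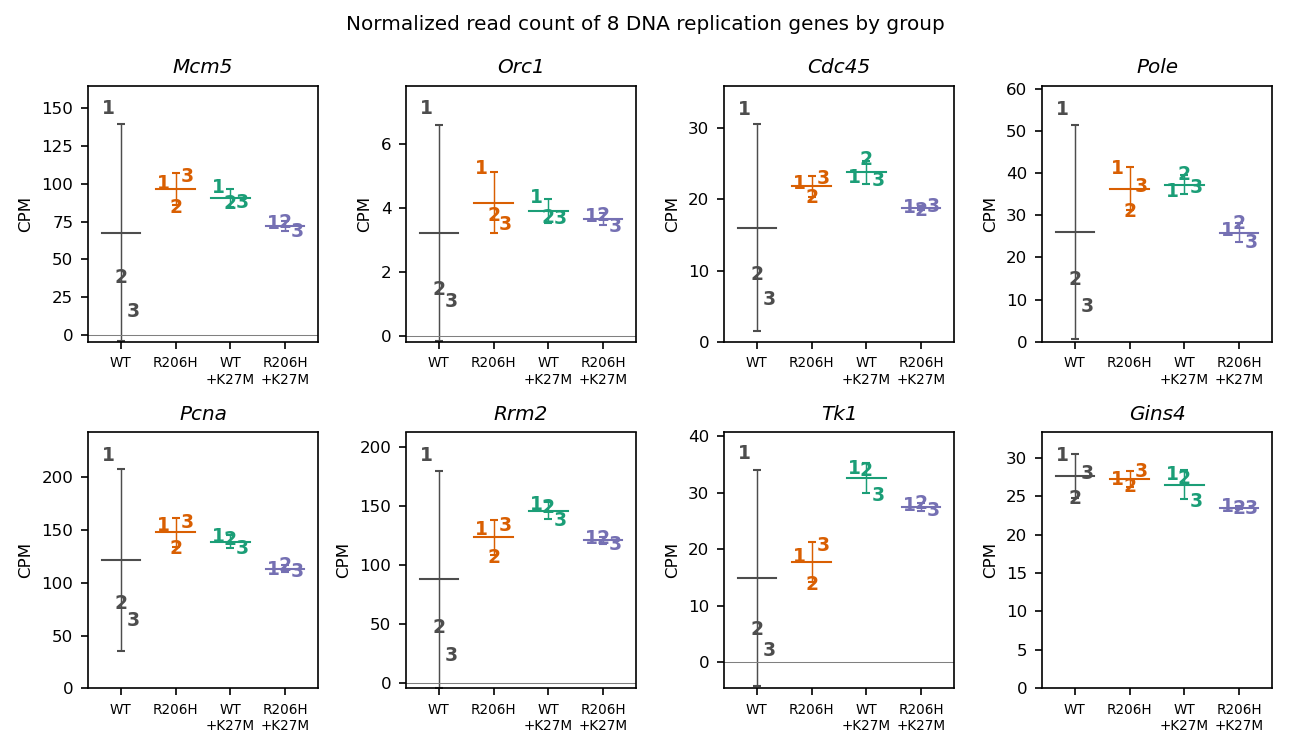
CPM of 8 replication genes (vertical axes, linear) in the 4 groups, with each library drawn as its replicate number, the group mean as a horizontal line and the SD (n = 3) as an error bar. In all but *Gins4* the *ACVR1* WT error bar is far longer than those of the other groups, with replicate 1 at the top and replicate 3 at the bottom.

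Over all 46 genes the highest *ACVR1* WT library exceeded the lowest by a median of 2.04 on the log2 scale, against 0.26 within *ACVR1* R206H, 0.14 within *ACVR1* WT with H3.1K27M and 0.10 within *ACVR1* R206H with H3.1K27M. For all 15445 genes the same medians were 0.42, 0.18, 0.16 and 0.15. The order replicate 1, 2, 3 from high to low was seen in 42 of the 46 genes, and in 28.2% of all genes. The 4 exceptions were *Gins4*, *Pold2*, *Rpa1* and *Rpa2*. Measured against the mean of the 3 *ACVR1* R206H libraries, replicate 1 was higher for 46 of 46 genes (median log2 difference 0.56, range 0.15 to 1.08), replicate 2 lower for 46 of 46 (median -1.01, range -1.69 to -0.14) and replicate 3 lower for 45 of 46 (median -1.49, range -3.04 to 0.04). The span in the *ACVR1* WT libraries was a median of 2.37 on the log2 scale for the 9 genes with an E2F word (range 0.87 to 3.26) and 2.02 for the 30 genes without (range 0.58 to 4.12), and the ranges overlap.

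**Figure D3:**
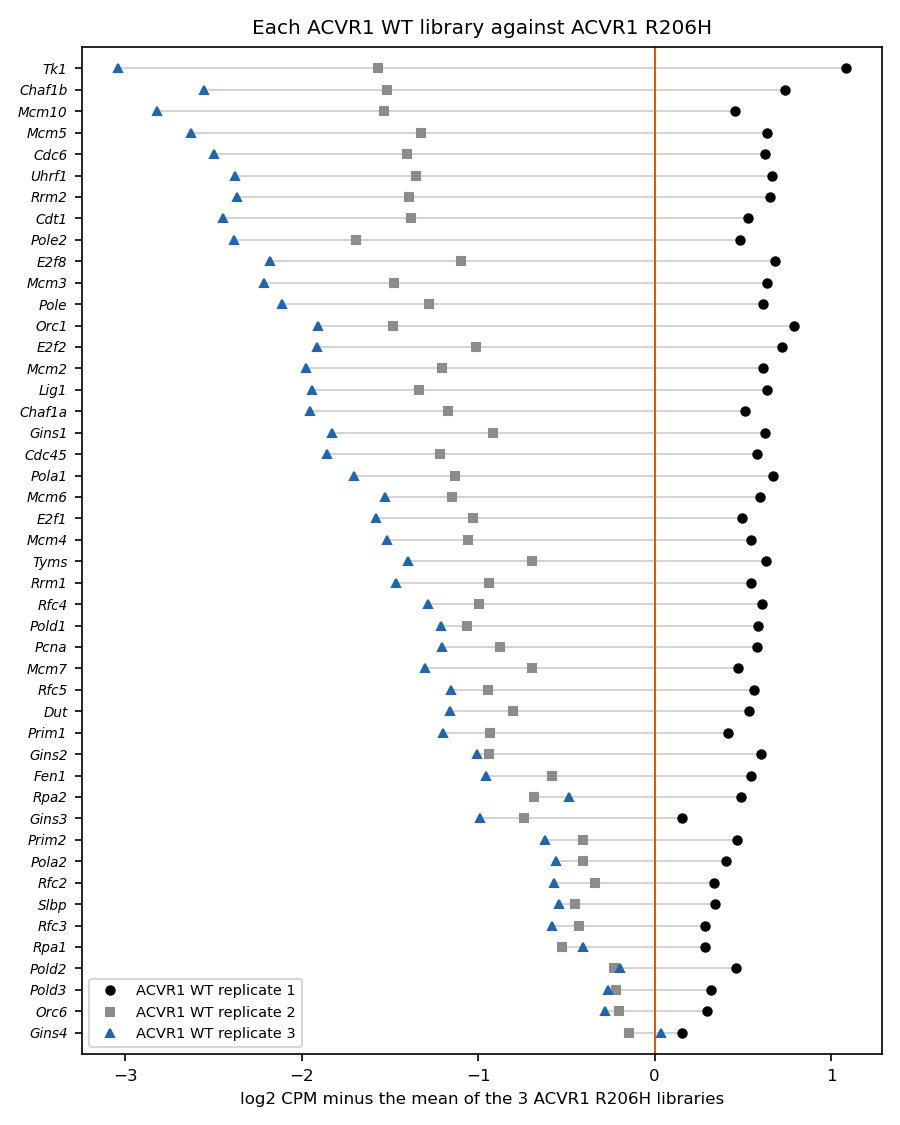
For each gene (rows, ordered by the span of the *ACVR1* WT libraries), the 3 symbols give the log2 CPM of each *ACVR1* WT library minus the mean of the 3 *ACVR1* R206H libraries (line at 0). Replicate 1 lies to the right of 0 in all 46 rows, replicate 2 to the left in all 46, and replicate 3 to the left in 45.

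Other genes moved with the replication genes across the *ACVR1* WT libraries. All 24 of 24 mitosis genes had the order replicate 1, 2, 3, against 28.2% of all genes, and their summed level was 3505, 1002 and 369 CPM. The share of all genes in the reverse order was not counted. *Mki67*, a marker of cycling cells, was at 339, 92.7 and 31.3 CPM. Of 8 astrocyte markers, 7 had the opposite order, and their summed level was 5153, 11041 and 15398 CPM with *ACVR1* WT, 7934 to 9027 with *ACVR1* R206H, 5507 to 5749 with *ACVR1* WT and H3.1K27M and 6761 to 6808 with *ACVR1* R206H and H3.1K27M. *Gfap*, the intermediate filament of astrocytes, was at 346, 1419 and 2674 CPM with *ACVR1* WT. Of 14 p53 target genes 10 had the order of the replication genes, with a summed 3313, 1898 and 1799 CPM, *Cdkn1a* (292, 113 and 119 CPM), which encodes the p21 inhibitor of cyclin-dependent kinases, being highest in replicate 1. Of 8 neural progenitor markers 1 had the order replicate 1, 2, 3 and 3 had the reverse, with a summed 5582, 5189 and 4189 CPM. The 1 was *Nes*, the nestin gene, at 407, 132 and 72.97 CPM. None of the astrocyte or progenitor markers was at 0 in any library. Neuron markers summed to 1218, 1725 and 1552 CPM with *ACVR1* WT and 643 to 1440.1 CPM in the other 9 libraries, and oligodendrocyte lineage markers to 3294, 3011 and 2379.7 CPM and 2805 to 4222 CPM, also with none at 0. Markers of cells outside the neural lineages were low. The 7 microglia and blood cell markers found summed to 3.27, 8.51 and 12.5 CPM with *ACVR1* WT and 1.31 to 6.00 CPM in the other 9 (*Aif1*, *Cx3cr1*, *Csf1r* and *Itgam* at 0 in at least 1 of the 12 libraries), the 6 endothelial markers to 15.6, 5.81 and 5.08 and 4.87 to 13.00 CPM (*Cdh5*, *Cldn5* and *Tek* at 0 in at least 1) and the 8 mural and fibroblast markers to 12.9, 13.02 and 9.68 and 13.8 to 35.0 CPM (*Lum* at 0 in at least 1). Their part in the result was not tested.

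**Figure D4:**
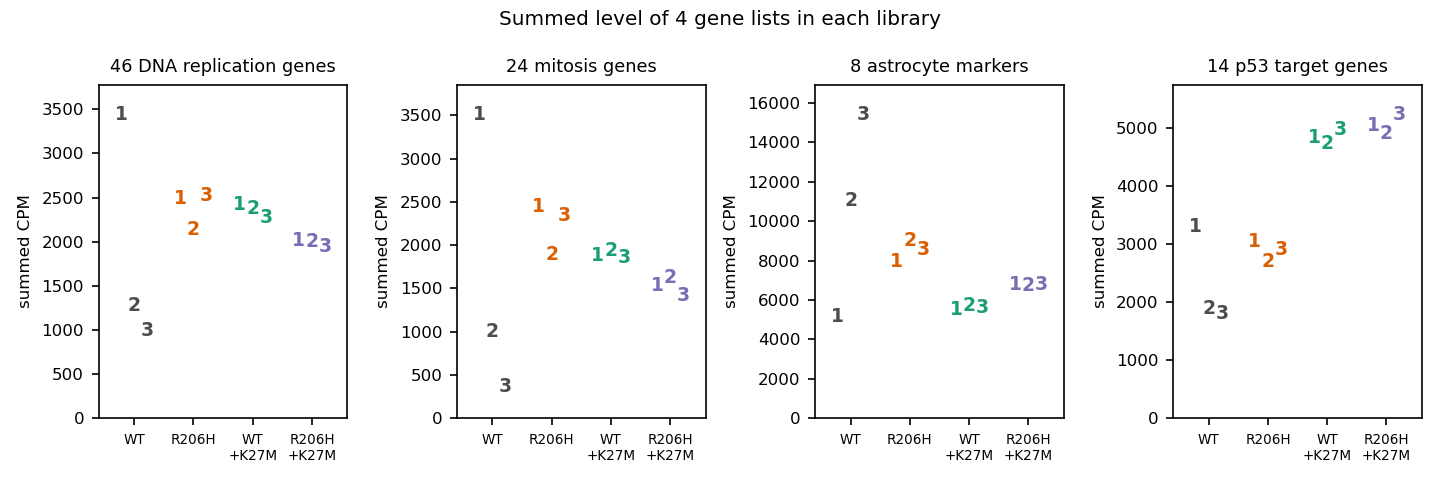
Summed CPM of 4 gene lists (vertical axes from 0) in the 4 groups, with each library drawn as its replicate number. With *ACVR1* WT the replication and mitosis sums are highest in replicate 1 and lowest in replicate 3 while the astrocyte sum is highest in replicate 3, and the p53 target sum is highest in the 6 H3.1K27M libraries.

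The study compared *ACVR1* R206H with *ACVR1* WT to learn what the mutant receptor changes in these progenitors. Without H3.1K27M, none of the 46 replication genes passed the threshold (adjusted p below 0.05 in edgeR's quasi-likelihood test), and 0.0% of the 15066 genes tested did. By edgeR, 0 of the 46 and 534 of all genes had an unadjusted p below 0.05, and DESeq2 called 0 of the 46 and 26 of all genes. The fitted log2 difference was above 0 for 44 of the 46 genes (median 0.37, against -0.01 over all genes), but the groups overlapped for all 46. Of all genes, 4.38% lay higher and 5.23% lower with *ACVR1* R206H without overlap. *Mcm5* differed by 0.52 (standard error 0.74, adjusted p = 0.94) in edgeR's test, *Pcna* by 0.29 (standard error 0.46, adjusted p = 0.94) and *Tk1* by 0.25 (standard error 0.93, adjusted p = 0.973). A p above the threshold does not show that the levels were alike, since the standard errors of these 3 genes exceed the differences.

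The direction depended on which *ACVR1* WT libraries were kept. Without *ACVR1* WT replicate 1, 43 of the 46 genes were higher with *ACVR1* R206H, against a background of 12.1% of all genes called higher, with a median log2 difference of 1.24. *Mcm5* then differed by 1.86 (adjusted p = 0.00632) and *Tk1* by 2.17 (adjusted p = 0.00598) in edgeR's test. *Gins4*, *Pold2* and *Fen1* were not called. With replicate 1 as the only *ACVR1* WT library, an alternative chosen after seeing the data in which that library is assumed to vary like the *ACVR1* R206H libraries, 34 of the 46 were lower, against 4.16% of all genes called lower, with a median of -0.53. *Mcm5* then differed by -0.61 and *Tk1* by -1.04. Without replicate 2 none of the 46 was called (median 0.10), and without replicate 3 none (median 0.01), with 0.0% of all genes called in both fits.

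The effect of H3.1K27M with *ACVR1* WT rests on the same 3 libraries. Mouse *Acvr1* counts also rose (log2 difference 2.20, adjusted p = 0.00745 in edgeR's test), so that H3.1K27M and receptor level cannot be told apart. None of the 46 genes was called by edgeR, while 23.0% of the 15385 genes tested were called in either direction. DESeq2 also called 0 of the 46, against 4522 of all genes. The log2 difference was above 0 for 42 of the 46 (median 0.40), with 0 at an unadjusted p below 0.05 and the smallest adjusted p at 0.187 (*Gins3*, log2 difference 0.62, edgeR). Without *ACVR1* WT replicate 1, 45 of the 46 were higher with H3.1K27M, against 26.9% of all genes called higher (median 1.20), and *Tk1* differed by 3.06 (adjusted p = 8.58e-05, edgeR). With replicate 1 as the only *ACVR1* WT library, the median was -0.50. The 3 libraries of *ACVR1* WT with H3.1K27M alone give the spread of this fit, so that only differences are given. *Tk1* then had a log2 difference of -0.17. Without replicate 2 none of the 46 was called (median 0.18), against 9.36% of all genes, and without replicate 3 none (median 0.06), against 17.8%. *Cdkn1a* was at 292, 113 and 119 CPM with *ACVR1* WT and 569, 534 and 546 CPM with *ACVR1* WT and H3.1K27M. It rose (log2 difference 1.66, adjusted p = 0.0248 in edgeR's test) and was 1 of 10 p53 target genes that rose, out of 14, against 12.6% of all genes. *Cdkn1a* was not called without *ACVR1* WT replicate 2 (1.43, adjusted p = 0.0787) or replicate 3 (1.46, adjusted p = 0.0522), and was called without replicate 1 (2.25, adjusted p = 5.63e-07) in edgeR's test. With replicate 1 alone its log2 difference was 0.93. Of the 14 genes 14 rose without replicate 1, 3 without replicate 2 and 8 without replicate 3, against 26.9%, 6.16% and 10.7% of all genes. Their median log2 difference with replicate 1 alone was 0.64.

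Markers of cell types are given for the same groups, *ACVR1* WT without H3.1K27M first, against 12.6% of all genes that rose and 10.4% that fell. Neuron markers summed to 1218 to 1725 and 769 to 811 CPM (1 of 8 rose, 2 fell) and oligodendrocyte lineage markers to 2379.7 to 3294 and 3589 to 4222 CPM (1 of 8 rose, 1 fell), and the sums of the groups did not overlap for either list. Astrocyte markers summed to 5153 to 15398 and 5507 to 5749 CPM (none of 8 rose, 2 fell) and neural progenitor markers to 4189 to 5582 and 4827 to 5275 CPM (none of 8 rose, 4 fell), with overlap. *Gfap* was at 346, 1419 and 2674 CPM and 279.6, 269 and 264 CPM and fell (log2 difference -2.44, adjusted p = 0.0431, edgeR), but was not called without *ACVR1* WT replicate 2 (adjusted p = 0.112) or replicate 3 (adjusted p = 0.0801) in edgeR's test. Mural and fibroblast markers summed to 9.68 to 13.02 and 18.8 to 20.8 CPM (4 of 6 tested rose), microglia and blood cell markers to 3.27 to 12.5 and 1.31 to 1.86 CPM (3 of 4 tested fell) and endothelial markers to 5.08 to 15.6 and 4.87 to 5.14 CPM (none of 2 tested was called). No mitosis gene of 24 was called with all libraries, and 24 rose without replicate 1 (against 26.9% of all genes). The median log2 difference of the mitosis genes was 1.47 without replicate 1 and -0.87 with replicate 1 alone. The part of these genes and markers in the result was not tested.

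In the presence of H3.1K27M, replication genes were lower with *ACVR1* R206H. Of the 46 genes, 31 fell (67.4%) and none rose, against 8.95% of the 15672 genes tested that fell. The difference was small: the log2 fold change was below 0 for all 46, with a median of -0.24 against 0.00 over all genes. For 38 of the 46, all 3 *ACVR1* R206H libraries lay below all 3 *ACVR1* WT libraries, against 18.4% of all genes. The biological coefficient of variation of this fit was 0.048, so that differences of this size exceeded the spread between replicates. Mouse *Acvr1* counts were also higher with *ACVR1* R206H (log2 difference 1.91, adjusted p = 0.00045 in edgeR's test). Effects of the R206H change and of receptor level cannot be told apart.

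*Mcm6* had the smallest adjusted p, falling from 107 ± 2.18 CPM to 83.4 ± 1.67 CPM (SD, n = 3), with -0.35 (standard error 0.04, adjusted p = 4.96e-05) as its log2 difference in edgeR's test. *Pole* fell the most, from 37.3 ± 2.18 CPM to 25.9 ± 2.28 CPM (SD, n = 3), with -0.52 (standard error 0.07, adjusted p = 0.000219). *Pcna* fell from 139 ± 5.83 CPM to 113 ± 3.15 CPM (SD, n = 3), with -0.29 (standard error 0.04, adjusted p = 0.000462). The groups did not overlap for any of the 3 genes.

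By role, 7 of 10 licensing genes fell, *Mcm2* with -0.39 and *Cdc6* with -0.38 among them, whereas *Orc1*, *Orc6* and *Cdt1* were not called. Of 6 helicase activation genes 2 fell, *Cdc45* and *Mcm10*, and none of the 4 GINS genes was called (log2 differences -0.15, -0.20, -0.13 and -0.16 for *Gins1*, *Gins2*, *Gins3* and *Gins4*). Of 4 polymerase alpha-primase genes 3 fell, but not *Pola1* (-0.16, adjusted p = 0.147, edgeR). *Pole*, *Pold1* and *Pold2* fell, while *Pole2* and *Pold3* were not called. *Pcna*, *Rfc2*, *Rfc4* and *Rfc5* fell, and *Rfc3* was not called (-0.07). *Rpa2* fell (-0.28), and *Rpa1* had the smallest difference of the 46 (-0.02, adjusted p = 0.739, edgeR). *Lig1* fell and *Fen1* was not called. All 5 nucleotide genes fell, from -0.35 (*Tyms*) to -0.23 (*Rrm1*). *Chaf1a*, *Chaf1b* and *Uhrf1* fell and *Slbp* was not called, and of the *E2f* genes *E2f8* (-0.45) and *E2f1* (-0.29) fell while *E2f2* was not called.

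With the *ACVR1* WT and *ACVR1* R206H libraries without H3.1K27M added to one fit of 12 samples, the coefficient of variation was 0.137 and none of the 46 genes was called, at a median of -0.25. Of the 15672 genes tested, 447 were called in that fit, 97 of them lower. Leaving out each of the 6 libraries in turn left 24 to 31 genes called, all lower, against 4.98% to 8.95% of all genes called lower in these fits, and 23 of the 31 were called under all 12 alternatives other than the fit of 12 samples. Other genes moved beside them. Of 24 mitosis genes 21 fell, 5 of 8 neural progenitor markers rose and 1 fell (sums 4827 to 5275 and 5562 to 5894 CPM, against 11.4% of all genes that rose and 8.95% that fell), the summed level of astrocyte markers was 5507 to 5749 CPM with *ACVR1* WT and 6761 to 6808 CPM with *ACVR1* R206H (4 of 8 rose and 1 fell, none at 0), and 6 of 8 oligodendrocyte lineage markers fell (sums 3589 to 4222 and 3477 to 3653 CPM, none at 0). Mural and fibroblast markers were low and summed to 18.8 to 20.8 and 30.5 to 35.03 CPM (3 of 7 tested rose). Neuron markers summed to 769 to 811 and 643 to 707 CPM (3 of 8 rose and 1 fell, none at 0), endothelial markers to 4.87 to 5.14 and 6.46 to 8.75 CPM (1 of 4 tested rose) and microglia and blood cell markers to 1.31 to 1.86 and 2.15 to 3.29 CPM (the 1 tested rose), and the sums of the groups did not overlap for these 3 lists. Their part in the result was not tested. *Cdkn1a* was not called (569, 534 and 546 against 579, 538 and 596 CPM).

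**Figure D5:**
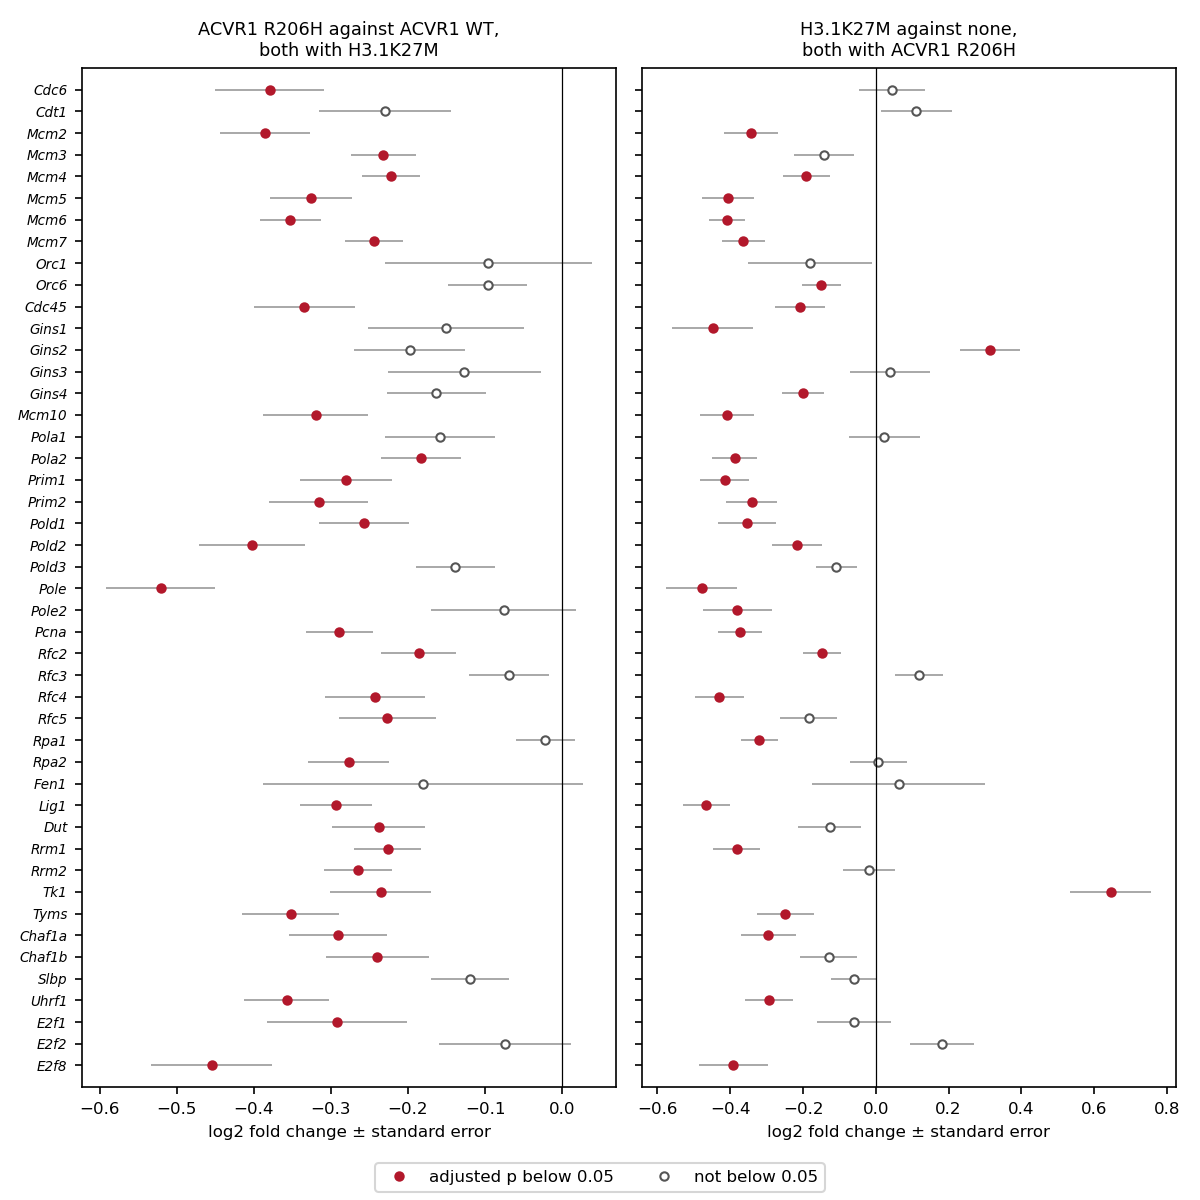
Log2 fold change with its standard error (horizontal axes, which differ between panels) of the 46 genes for *ACVR1* R206H against *ACVR1* WT with H3.1K27M (left) and for H3.1K27M against none with *ACVR1* R206H (right), 3 libraries per group. Filled points have an adjusted p below 0.05, and they lie to the left of 0 for 31 genes in the left panel and for 27 in the right, where *Tk1* and *Gins2* lie to the right.

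With *ACVR1* R206H, H3.1K27M went with lower levels of 27 of the 46 genes (58.7%, against 27.4% of the 15482 genes tested that fell) and higher levels of 2 (4.35%, against 29.1% that rose). The median log2 fold change was -0.20. Groups did not overlap for 28 genes that were lower, against 32.1% of all genes, and for 3 that were higher, against 31.0%. *Mcm6* fell from 112 ± 6.67 CPM to 83.4 ± 1.67 CPM (SD, n = 3), with -0.41 (standard error 0.05, adjusted p = 2.32e-05) in edgeR's test. *Lig1* fell from 78.7 ± 7.55 CPM to 56.6 ± 0.91 CPM, with -0.47 (standard error 0.06, adjusted p = 6.39e-05), and *Rfc4* from 23.96 ± 1.13 CPM to 17.6 ± 0.614 CPM, with -0.43 (standard error 0.07, adjusted p = 0.000167). The 2 genes that rose were *Tk1*, from 17.7 ± 3.55 CPM to 27.5 ± 0.669 CPM, with 0.65 (standard error 0.11, adjusted p = 0.000391), and *Gins2*, from 13.6 ± 1.33 CPM to 16.8 ± 0.194 CPM, with 0.31 (standard error 0.08, adjusted p = 0.00666), the latter counted on the exon bases it does not share with *Gse1*. *E2f2* was the third gene whose H3.1K27M libraries all lay above those without (log2 difference 0.18, adjusted p = 0.0946, edgeR). Mouse *Acvr1* counts were also higher with H3.1K27M (log2 difference 3.23, adjusted p = 1.27e-07 in edgeR's test). Effects of H3.1K27M and of receptor level cannot be told apart.

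Counts of genes called are given by role, and differences between roles were not tested. Of 10 licensing genes 6 fell, but *Cdc6* (0.04), *Cdt1* (0.11), *Orc1* (-0.18) and *Mcm3* (-0.14) were not called. The GINS genes split, with *Gins1* (-0.45) and *Gins4* (-0.20) lower, *Gins2* higher and *Gins3* not called. Polymerase alpha-primase showed 3 of 4 genes lower, with *Pola1* at 0.02 and not called. Of the 5 genes of polymerases epsilon and delta 4 fell, with *Pold3* not called. *Pcna*, *Rfc2* and *Rfc4* fell, and *Rfc3* and *Rfc5* were not called. *Rpa1* fell (-0.32) and *Rpa2* was not called. Among nucleotide genes *Rrm1* (-0.38) and *Tyms* (-0.25) fell, *Tk1* rose, and *Rrm2* (-0.02) and *Dut* were not called. *Lig1*, *Chaf1a*, *Uhrf1* and *E2f8* fell, while *Fen1*, *Chaf1b*, *Slbp*, *E2f1* and *E2f2* were not called. *Rrm1* and *Rrm2* encode the subunits of 1 enzyme, and only the difference for *Rrm1* passed the threshold, although the difference between them was not tested.

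Leaving out each library in turn left 23 to 34 of the 46 genes called, against 49.5% to 53.7% of all genes called in either direction, so that the lowest count is close to the share of all genes. Of these, 21 to 32 were lower, against 24.1% to 26.0% of all genes, and 2 were higher. The fit of 12 samples called none of the 46, at a median of -0.20, against 5925 of the 15482 genes tested, 2583 of them lower. All 24 mitosis genes fell (median -0.55) and all 14 p53 target genes rose (median 0.92), from a summed 2702 to 3054 CPM to 4914 to 5228 CPM. *Cdkn1a* went from 253, 216 and 244 to 579, 538 and 596 CPM (log2 fold change 1.28, adjusted p = 1.21e-08, edgeR). Astrocyte markers summed to 7934 to 9027 and 6761 to 6808 CPM (2 of 8 rose, 4 fell), neural progenitor markers to 5455 to 5657 and 5562 to 5894 CPM (1 of 8 rose, 4 fell), neuron markers to 1172 to 1440.1 and 643 to 707 CPM (5 of 8 rose, 2 fell) and oligodendrocyte lineage markers to 2805 to 3008 and 3477 to 3653 CPM (5 of 8 rose, 2 fell), with none at 0. Mural and fibroblast markers summed to 13.8 to 16.3 and 30.5 to 35.03 CPM (5 of 5 tested rose), endothelial markers to 8.69 to 13.00 and 6.46 to 8.75 CPM (1 of 2 tested rose, 1 fell) and microglia and blood cell markers to 4.25 to 6.00 and 2.15 to 3.29 CPM (1 of 2 tested rose, 1 fell). These counts stand against 29.1% of all genes that rose and 27.4% that fell. Their part in the result was not tested.

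The interaction asks whether the *ACVR1* R206H effect differed with and without H3.1K27M. None of the 46 genes passed the threshold in edgeR's fit of 12 samples, where 0.0712% of the 15445 genes tested did, and none of the 45 with an adjusted p in DESeq2 passed there (*Tk1* had none), although the estimate was below 0 for all 46 (median -0.57) and 0 had an unadjusted p below 0.05 in edgeR. Without *ACVR1* WT replicate 1, the estimate passed the threshold below 0 for 44 of the 46, against 13.0% of all genes (median -1.44). *Mcm5* had -2.17 (adjusted p = 0.000267) and *Pcna* -1.33 (adjusted p = 2.55e-05) in that fit by edgeR. With replicate 1 as the only *ACVR1* WT library, assumed to vary like the libraries of the other 3 groups, the estimate was above 0 for 45 of the 46 (median 0.25) and passed the threshold for 3, *Tk1*, *Chaf1b* and *E2f2*, against 2.11% of all genes called above 0. Without replicate 2 or replicate 3 none of the 46 passed (medians -0.36 and -0.26), against 0.0259% and 0.0454% of all genes.

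Further genes of the replication machinery, 43 others that include the remaining ORC, polymerase and origin-firing subunits, were all tested. With H3.1K27M, 17 of the 43 fell with *ACVR1* R206H and none rose (median log2 fold change -0.16), with *Topbp1* (-0.27, adjusted p = 0.000406) and the kinase subunit *Dbf4* (-0.32, adjusted p = 0.0009) having the smallest adjusted p in edgeR's test. The share of all genes that fell was 8.95%. With *ACVR1* R206H, H3.1K27M went with 26 of the 43 lower and 1 higher (median -0.19), against 27.4% and 29.1% of all genes. The 1 that rose was *Pole4*, an accessory subunit of polymerase epsilon (0.61), and *Rnaseh2b*, a subunit of the enzyme that removes ribonucleotides from DNA, fell the furthest of the named ones (-1.07). With *ACVR1* WT, 3 of the 43 were called for H3.1K27M, against 23.0% of all genes, again *Pole4* (0.68, adjusted p = 0.0228) and *Rnaseh2b* (-1.03, adjusted p = 0.00199), and *Orc3* (-0.29, adjusted p = 0.0222) in edgeR's test. *Rnaseh2b* was called with each of the *ACVR1* WT libraries left out in turn (-1.06 to -0.98), while *Pole4* (0.62, adjusted p = 0.0849) and *Orc3* (-0.27, adjusted p = 0.0881) were not called without replicate 2 by edgeR. Without replicate 1, 28 of the 43 were called higher and 4 lower, against 26.9% and 25.6% of all genes (median 0.36). With replicate 1 alone the median was -0.35. The order replicate 1, 2, 3 among the *ACVR1* WT libraries held for 28 of these 43 genes, against 28.2% of all genes.

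Of 15 E2F and pocket protein genes, 3 were called for *ACVR1* R206H with H3.1K27M, against 20.3% of all genes, and 6 for H3.1K27M with *ACVR1* R206H, against 56.5%. With H3.1K27M, *Rb1*, the retinoblastoma gene that restrains E2F factors, rose with *ACVR1* R206H from 120.5, 123 and 136 to 158, 164 and 172 CPM (log2 fold change 0.39, adjusted p = 0.000176, edgeR), and *E2f6* (-0.14) and *Mybl2* (-0.23) fell. With *ACVR1* R206H, H3.1K27M went with higher *Lin52* (0.41) and *E2f6* (0.14) and with 4 of the 15 lower, among them *Rbl1* (-0.33), which encodes p107, and *Lin9* (-0.32). In the *ACVR1* WT libraries *Rb1* was at 119, 166 and 182 CPM and *Rbl1* at 43.8, 25.5 and 22.8 CPM.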

How the data were processed

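The 12 samples comprised 3 samples of brainstem progenitors from each of 4 groups, taken from the sample labels. The authors' paired-end reads were aligned to mm10 (GRCm38) with STAR (2.6.0b-1 in the submitters' processing notes), and the authors deposited raw counts per Ensembl gene from HTSeq-count without strand, in union mode, with a minimum alignment quality of 10 and without ambiguous or multiply mapped reads. Symbols, positions and exon lengths came from GENCODE annotation of the same build, and promoters from RefSeq (GRCm38.p6).

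Genes with a mean normalised count of at least 10 were tested with edgeR 4.0.16 (R 4.3.3) by the quasi-likelihood F test with TMM normalisation on the 6 samples of each comparison, or all 12 for the interaction. Adjusted p values are Benjamini-Hochberg values over all genes tested, with a threshold of 0.05, and standard errors were derived from the fold change and its F statistic. DESeq2 1.42.0, other scalings and filters, the replicate block, one fit of 12 samples and each library left out were alternatives. With 3 samples against 3, an exact permutation test of a single gene cannot go below p = 0.1. Chi-square values per degree of freedom between replicates of a group ran from 2.93 to 127, so that no pair agreed within sampling noise.

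The genes, lists, roles and representatives were chosen with earlier results of these data known. Values in every sample are given for 20 genes that represent the roles, for up to 3 called genes in each direction with the smallest adjusted p in each comparison, and for the 3 genes with the widest span among the *ACVR1* WT libraries. Of the other lists, up to 2 called genes in each direction are named, besides *Acvr1*, *Cdkn1a*, *Mki67* and *Trp53*. *Gfap*, *Nes*, *Rb1* and *Rbl1* were named after their values were seen.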

Additional observations from a re-analysis of the deposited data

How the results depend on the processing

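Counts of replication genes called kept within 1.5 times under DESeq2, its size factors in edgeR, library totals without TMM, no filter, at least 10 counts in every sample and the replicate block. In one fit of 12 samples, the counts with H3.1K27M (31) and by H3.1K27M with *ACVR1* R206H (29) went to 0. All genes called in it were 447 with H3.1K27M, 5925 by H3.1K27M with *ACVR1* R206H, 11 without H3.1K27M and 6335 by H3.1K27M with *ACVR1* WT. Leaving out 1 library gave 0 to 43 replication genes and 0 to 3485 of all genes without H3.1K27M, 24 to 31 and 1915 to 2966 with it, 0 to 45 and 1037 to 8115 by H3.1K27M with *ACVR1* WT, 23 to 34 and 7589 to 8350 by H3.1K27M with *ACVR1* R206H, and 0 to 44 and 3 to 4112 for the interaction. The highest counts without H3.1K27M, by H3.1K27M with *ACVR1* WT and for the interaction came without *ACVR1* WT replicate 1. In that fit, *Orc6* (-0.01, from -0.11 to 0.20 over the left-out libraries), *Rpa1* (-0.12, from -0.27 to 0.17) and *Pola2* (-0.07, from -0.25 to 0.29) changed sign by H3.1K27M with *ACVR1* WT and were called, and *Gins4* changed sign without a call (-0.05 to 0.02). The number of the 46 genes below 0 in that comparison was 4 with all libraries, 13 without *ACVR1* WT replicate 2 and 18 without replicate 3, and without H3.1K27M it was 2, 8 and 20, with none of the 46 called in these fits. With replicate 1 as the only *ACVR1* WT library, chosen after seeing the data, 34 replication genes and 1307 of all genes were called without H3.1K27M, 36 and 6566 by H3.1K27M with *ACVR1* WT, and 3 and 756 for the interaction. DESeq2 called 26 of all genes without H3.1K27M and 97 for the interaction, and no filter gave 18 for the interaction. The cause was not tested.

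The labels give replicate numbers 1 to 3 in each group, but same-numbered samples did not deviate together in every pair (correlations of deviations across 15445 genes from -0.11 to 0.29), so that the numbers were not taken as pairs. The replicate block gave 2023 of all genes by H3.1K27M with *ACVR1* WT and 2 for the interaction, left the counts of replication genes at 0, 31, 0, 29 and 0, and moved their median from 0.37 to 0.65 without H3.1K27M and from 0.40 to 0.68 by H3.1K27M with *ACVR1* WT. Depth limits the precision of genes at few counts, such as *Fen1* and *Orc1*.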
